A study of Mus musculus with 12 samples.

Results

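Expression of 31 genes of glycolysis, glycogen and lactate handling was followed in the mouse brain cortex, across 4 genotypes and 12 RNA-seq libraries. The genes were chosen by name, for their place in the pathway, out of 35275 genes in the deposited table. All 31 were expressed above the low-count filter, which kept 16673 genes in all. They comprise 2 glucose transporters, 15 enzymes of the glycolytic trunk, 2 lactate dehydrogenase subunits, 3 monocarboxylate transporters, 4 regulatory enzymes and 5 genes of glycogen metabolism.

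The study asked how loss of the mitochondrial deacetylase SIRT3 and amyloid pathology, alone and together, alter cortical gene expression. The 4 groups were APP/PS1/Sirt3-/- mice, which carry the APP and mutant PS1 transgenes and lack Sirt3, APP/PS1 mice, which carry the transgenes alone, Sirt3-/- mice, which lack Sirt3 in the whole body, and WT mice. Each group has 3 libraries, numbered 1, 2 and 4, and all animals are labelled as female and 8 months old. The methods name more than 1 strain background for the Sirt3-/- and wild-type stocks and only C57BL/6 for APP/PS1, and the labels give no strain, so strain and genotype cannot be told apart here. Nothing in the labels says that the libraries come from separate animals, while a figure legend of the study gives 4 mice in each group. Neither the labels nor the methods name the promoter of the transgenes.

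Glycolysis splits glucose into pyruvate in the cytosol. Pyruvate then enters the mitochondria or is reduced to lactate, and in brain a widely discussed model has astrocytes export lactate that neurons take up and oxidise. Glycogen is a small glucose store in brain, held mainly in astrocytes. SIRT3 acts on mitochondrial enzymes, and in cultured cells and tumours its loss has been linked to a more stable HIF1α, a hypoxia factor that binds the core letters ACGTG or GCGTG and drives many glycolytic genes. The levels below are messenger RNA and not enzyme activity.

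Each library held between 15251720 and 18644376 reads assigned to genes. Several libraries went against their labels. Sirt3 itself stood at 28.6 and 27.7 CPM (counts scaled to a common library size after TMM normalization) in the libraries labelled APP/PS1/Sirt3-/- 1 and 4, against 0.211 CPM in APP/PS1/Sirt3-/- 2, 0.186 to 0.467 CPM in Sirt3-/-, and 59.0 to 64.5 CPM in the libraries labelled APP/PS1 and WT. App stood at 1623 CPM in the library labelled APP/PS1 4, within the 1602 to 1844 CPM of the libraries without the transgenes, whereas the other APP/PS1 libraries had 3614 and 3794 CPM. In 4 libraries, number 4 of each group, Y-linked reads were at least 1605 and Xist reads at most 53, although all 12 are labelled female. The contrasts and the counts of groups that did not overlap were therefore recomputed without the libraries that went against their Sirt3 or App labels, and the contrasts also with sex as a covariate. Shares and spreads are given for all 12 libraries. The dissected tissue also varied. Summed over 12 striatal neuron markers, CPM was 318 to 1793 in APP/PS1/Sirt3-/-, 487 to 1240 in APP/PS1, 1650 to 3029 in Sirt3-/- and 321 to 683 in WT. Summed over 11 cortical excitatory neuron markers it was 1507 to 2020 in APP/PS1/Sirt3-/-, 1797 to 1990 in APP/PS1, 1250 to 2398 in Sirt3-/- and 2394 to 2768 in WT. The part of this variation in the results was not tested. In such bulk tissue, fewer cells of a type and less RNA per cell cannot be told apart.

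The promoters of the 31 genes were first read for the letters bound by hypoxia factors. RefSeq windows of 300 bases (250 before and 50 after the start, build GRCm38.p6) were matched for 29 of the genes and gave 44 windows, since some genes have several starts. Slc2a3 and Slc16a7 were not matched. The motifs ACGTG and GCGTG were searched on both strands, together with CACGTG, which contains ACGTG. At least 1 of ACGTG and GCGTG was found in 75.0% of the 44 windows, against 43.8% of all 32851 windows. Per gene the share was 79.3%, or 23 of the 29, against 46.7% of all 27025 genes with a window. A gene counted if any of its windows matched. The members have more windows per gene, 44 for 29 genes against 32851 for 27025, and the part of this was not tested. CACGTG was in 11.4% of the members' windows, against 7.15% of all windows. The median GC content was 60.5% in the members' windows and 52.7% in all windows, and its part in the shares was not tested. These are letter matches and not measured binding.

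To show what such matches look like, the 250 bases before the start are printed for 5 genes, chosen after their values were seen. Slc2a1 (chr4:119108495-119108744, plus strand) and Pgk1 (chrX:106186850-106187099, plus strand) have 2 matches each, Pfkfb4 (chr9:108991652-108991901, plus strand) has 1, and Gys1 (chr7:45434589-45434838, plus strand) and Bpgm (chr6:34476106-34476355, plus strand) have none. Capitals mark ACGTG or GCGTG on either strand, so that CACGT and CACGC are matches on the opposite strand.
Slc2a1: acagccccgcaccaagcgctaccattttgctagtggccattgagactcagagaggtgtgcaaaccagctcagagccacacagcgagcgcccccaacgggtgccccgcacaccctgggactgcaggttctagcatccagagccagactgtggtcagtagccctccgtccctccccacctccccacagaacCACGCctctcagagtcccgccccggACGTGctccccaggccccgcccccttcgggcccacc
Pgk1: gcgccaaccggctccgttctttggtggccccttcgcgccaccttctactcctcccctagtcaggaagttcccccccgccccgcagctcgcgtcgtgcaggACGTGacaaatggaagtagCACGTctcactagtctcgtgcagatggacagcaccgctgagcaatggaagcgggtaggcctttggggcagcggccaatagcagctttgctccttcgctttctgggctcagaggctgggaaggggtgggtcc
Pfkfb4: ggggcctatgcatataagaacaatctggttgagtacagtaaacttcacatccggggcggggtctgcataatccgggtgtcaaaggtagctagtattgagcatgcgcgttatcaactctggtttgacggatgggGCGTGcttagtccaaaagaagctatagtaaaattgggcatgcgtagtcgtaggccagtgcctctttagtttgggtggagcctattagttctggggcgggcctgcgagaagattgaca
Gys1: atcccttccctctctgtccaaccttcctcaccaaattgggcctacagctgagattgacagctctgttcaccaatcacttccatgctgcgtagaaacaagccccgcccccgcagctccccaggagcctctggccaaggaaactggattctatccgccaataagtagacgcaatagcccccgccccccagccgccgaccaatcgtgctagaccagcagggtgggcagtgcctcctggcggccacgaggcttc
Bpgm: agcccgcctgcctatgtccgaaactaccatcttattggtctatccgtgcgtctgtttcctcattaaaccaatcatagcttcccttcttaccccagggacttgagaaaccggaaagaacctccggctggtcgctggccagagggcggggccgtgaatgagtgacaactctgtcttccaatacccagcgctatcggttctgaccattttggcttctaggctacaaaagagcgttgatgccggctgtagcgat

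Levels differed far more between the genes than between the groups. The authors' FPKM values, which correct for gene length, allow genes to be compared. Gapdh, which oxidises glyceraldehyde 3-phosphate, was the highest of the 31 with a mean of 1249.5 FPKM over the 12 libraries, followed by Aldoa, an aldolase, with 1012 FPKM and Pkm, the pyruvate kinase gene, with 644 FPKM. Hk1, the main brain hexokinase, stood at 102 FPKM and its isozyme Hk2, known from muscle and tumours, at 1.23 FPKM. Slc16a3, the lactate exporter MCT4, was the lowest with 1.20 FPKM. The glycolytic trunk apart from Hk2 lay between 61.9 FPKM for Pfkl and the value of Gapdh.

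**Figure D1:**
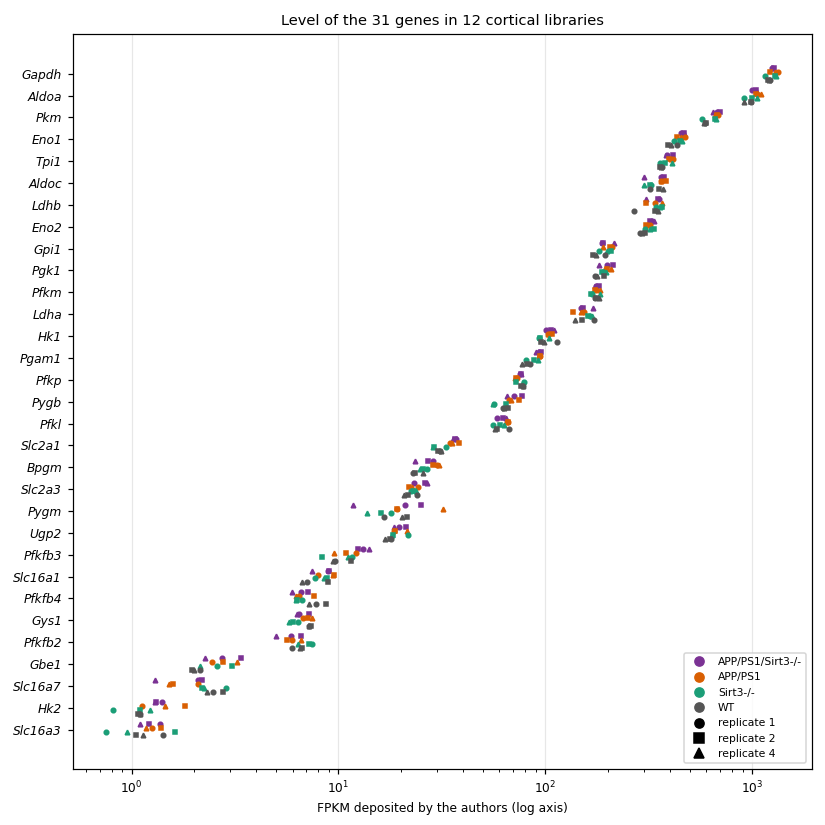
Level of the 31 genes in each of the 12 libraries, as FPKM deposited by the authors on a log axis, with colour for the group and marker shape for the replicate number. The mean over 12 libraries runs from 1249.5 FPKM for Gapdh to 1.20 FPKM for Slc16a3, and the 12 points of a gene lie close together beside that range.

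The share of an isozyme in its family was steady over the 12 libraries for some steps and less so for others. Hk2 made up 0.862 to 1.67% of Hk1 plus Hk2 in FPKM. Among the phosphofructokinases, the enzymes of the committed step, Pfkm held 54.4 to 57.5%, Pfkp 22.5 to 26.2% and Pfkl 18.02 to 21.1%. The astrocytic aldolase Aldoc held 22.1 to 28.9% of Aldoa plus Aldoc, and the neuronal enolase Eno2 held 39.9 to 43.5% of Eno1 plus Eno2. Ldha, the subunit that favours lactate formation, made up 29.5 to 35.6% of Ldha plus Ldhb in APP/PS1/Sirt3-/-, 29.0 to 31.3% in APP/PS1, 30.5 to 32.5% in Sirt3-/- and 28.4 to 39.1% in WT. The 4 groups thus overlapped in the Ldha share, and the highest value of all was in a WT library. The share of Pfkp was 23.8 to 24.4% in APP/PS1/Sirt3-/-, 22.5 to 23.1% in APP/PS1, 24.0 to 26.2% in Sirt3-/- and 24.5 to 24.6% in WT. Both transgenic groups lay below WT in this share, APP/PS1/Sirt3-/- by a narrow margin. Pygm, the muscle type glycogen phosphorylase that brain astrocytes also make, ranged most widely, from 15.2% of Pygb plus Pygm in the library labelled APP/PS1/Sirt3-/- 4 to 32.1% in the library labelled APP/PS1 4.

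**Figure D2:**
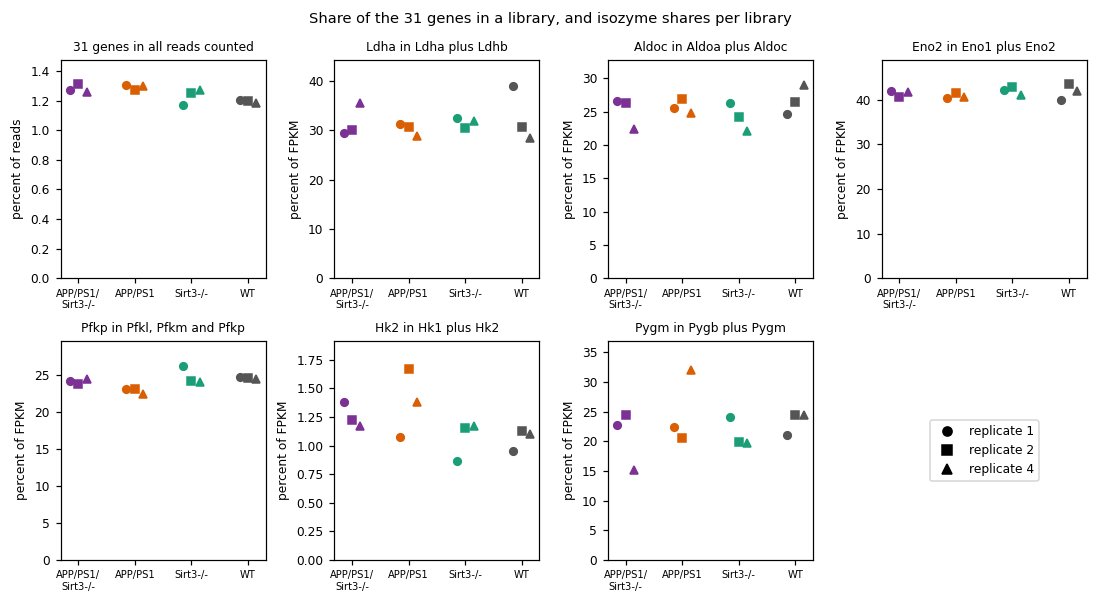
Share of all counted reads that fall in the 31 genes, and isozyme shares in percent of summed FPKM, in each library, with groups on the x axis and marker shape for the replicate number. The Ldha share of WT 1 (39.1%) is the highest of the 12, and the Pygm share spans 15.2 to 32.1%.

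The genes varied little between libraries of a group. The median SD of log2 CPM within groups was 0.096 for the 31 genes, from 0.047 for Eno2 to 0.37 for Pygm, against 0.167 for all 16673 genes and 0.126 for the 11781 genes at or above the lowest member's mean level. Many of the 31 lay far above that lowest level, and the part of read depth in these values was not tested. Over all 12 libraries, 24 of the 31 genes varied by less than 1.5-fold between the lowest and the highest CPM. The median of that ratio was 1.28 for the 31 genes and 1.54 for all genes. Together the 31 genes took 1.26 to 1.31% of the counted reads in APP/PS1/Sirt3-/-, 1.27 to 1.31% in APP/PS1, 1.17 to 1.27% in Sirt3-/- and 1.19 to 1.20% in WT. Both transgenic groups lay above WT in this share, and the Sirt3-/- group overlapped WT.

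**Figure D3:**
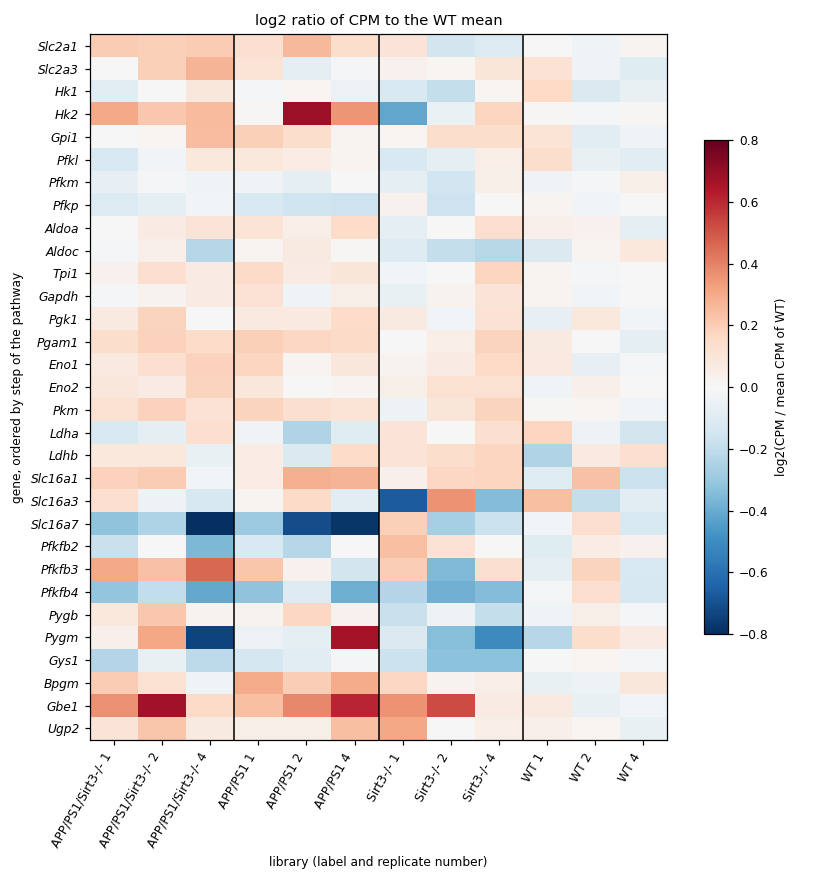
log2 ratio of CPM to the WT mean for the 31 genes (rows, ordered along the pathway) in the 12 libraries (columns, by label and replicate number), red for higher and blue for lower. Most cells are pale, and the strongest colours are in genes of few reads (Hk2, Slc16a7, Gbe1) and in Pygm.

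None of the 31 genes passed an adjusted p under 0.05 in any of the 6 contrasts, by edgeR's quasi-likelihood test with Benjamini-Hochberg adjustment over 16673 genes or by DESeq2 on the same 12 libraries. The 3 contrasts against WT share the WT libraries, so their values are given side by side. In APP/PS1/Sirt3-/- against WT, edgeR called 0 of the 31, where 1.13% of all genes were called, and 6 had an unadjusted p under 0.05 (4 higher, 2 lower), or 19.4% against 20.1% of all genes. DESeq2 called 6.25% of all genes there. In APP/PS1 against WT it called 0 of 31, where 0% of all genes were called, and 7 had an unadjusted p under 0.05 (4 higher, 3 lower), or 22.6% against 17% of all genes. DESeq2 called 3.07% of all genes there. In Sirt3-/- against WT it called 0 of 31, where 0.294% of all genes were called, and 2, both lower, had an unadjusted p under 0.05, or 6.45% against 13.5% of all genes, and DESeq2 called 2.48% of all genes.

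The contrasts that share a background gave the same count of 0. In APP/PS1/Sirt3-/- against APP/PS1, 0.024% of all genes were called, and 1 member (lower) had an unadjusted p under 0.05, or 3.23% against 4.86% of all genes, with 0.0272% called by DESeq2. In APP/PS1/Sirt3-/- against Sirt3-/-, 0% of all genes were called, and 4 members (3 higher, 1 lower) had an unadjusted p under 0.05, or 12.9% against 11.4% of all genes, with 0.755% called by DESeq2. The interaction, which asks whether the difference between labelled Sirt3 genotypes depends on the transgenes, gave 0% called among all genes and 1 member (lower) with an unadjusted p under 0.05, or 3.23% against 6.48%, with 0.0553% of all genes called by DESeq2.

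The differences of the 31 genes were small on the log2 scale. Their median was 0.08 in APP/PS1/Sirt3-/- against WT, beside 0.0058 over all genes, with 20 of the 31 above 0. It was 0.05 in APP/PS1 against WT, beside 0.0064, with 23 above 0. It was 0.02 in Sirt3-/- against WT, beside 0.0026, with 18 above 0. The median was -0.01 in APP/PS1/Sirt3-/- against APP/PS1, beside 0.0065 over all genes, with 13 above 0. Without the libraries labelled APP/PS1/Sirt3-/- 1 and 4, which hold Sirt3 reads, it turned to 0.02, with 23 above 0.

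The intervals show how large a difference the data allow. The 95% interval of the fold change stayed within 1.5-fold either way for 26 of the 31 genes in APP/PS1/Sirt3-/- against WT, 27 in APP/PS1 against WT, 28 in Sirt3-/- against WT, 29 in APP/PS1/Sirt3-/- against APP/PS1 and 26 in APP/PS1/Sirt3-/- against Sirt3-/-. For the 14 trunk enzymes other than Hk2, all intervals in Sirt3-/- against WT lay between 0.783-fold and 1.22-fold. In APP/PS1/Sirt3-/- against WT those bounds were 0.845-fold and 1.23-fold. Such an interval limits the size of a difference and does not show that the groups are equal.

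**Figure D4:**
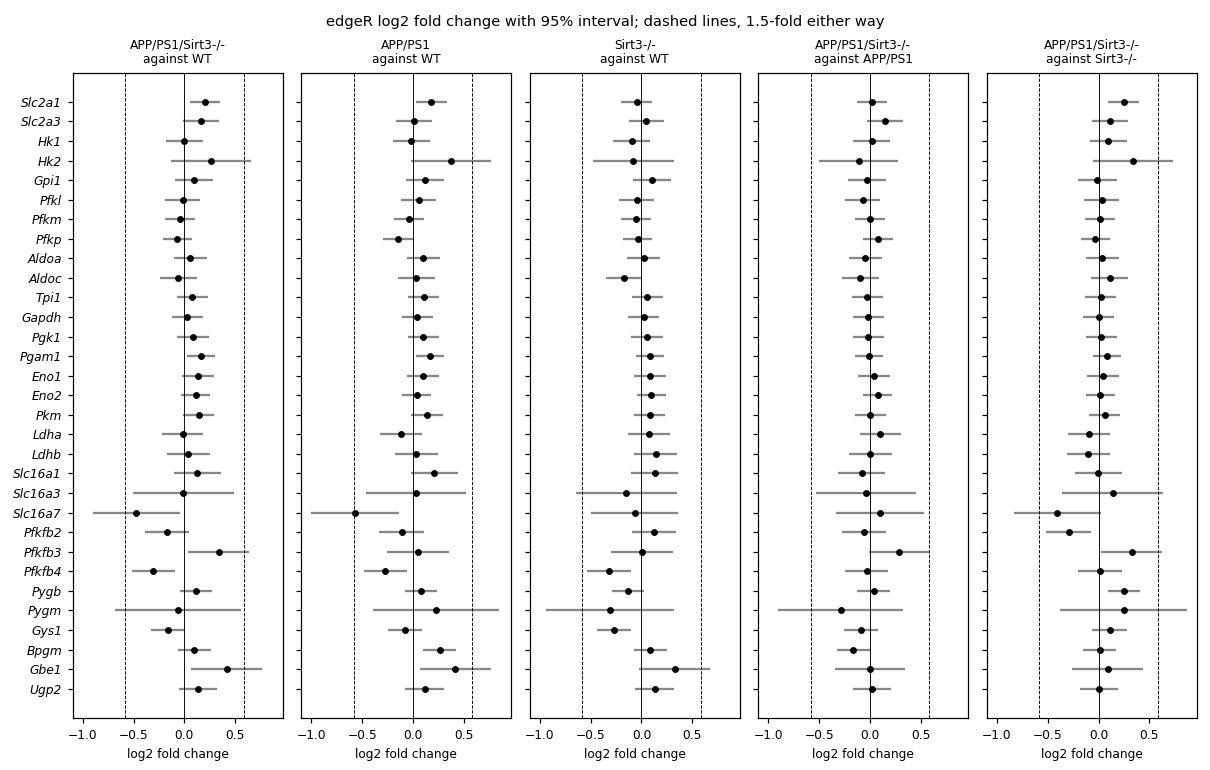
edgeR log2 fold change (x axis) with its 95% interval for the 31 genes (rows, ordered along the pathway) in the 5 contrasts between pairs of groups, the first named group over the second, with dashed lines at 1.5-fold either way. Most intervals cross 0 and stay inside the dashed lines, and the widest belong to Pygm, Slc16a3, Slc16a7 and Hk2.

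Groups that did not overlap were counted next, beside the share of all genes. Against WT, the share of the 31 genes lying higher was above that of all genes in both transgenic groups and below it in Sirt3-/-. In APP/PS1/Sirt3-/- against WT, all 3 libraries lay above all 3 WT libraries for 10 of the 31 genes, or 32.3%, against 13% of all genes, and below them for 3, or 9.68%, against 12.5%. Without APP/PS1/Sirt3-/- 1 and 4, the 1 library left lay above all WT libraries for 17 genes, or 54.8%, against 32.6% of all genes, and below them for 4, or 12.9%, against 31.6%. In APP/PS1 against WT, 8 genes, or 25.8%, lay above, against 13.3% of all genes, and 2, or 6.45%, lay below, against 14.6%. Without the library labelled APP/PS1 4, 9 genes, or 29.0%, lay above, against 18.7% of all genes, and 5, or 16.1%, lay below, against 19.5%. In Sirt3-/- against WT only Eno2 lay above WT, and Pfkfb4, Pygb and Gys1 lay below, which is 3.23% against 10.3% and 9.68% against 8.49% of all genes. Both transgenic groups had Slc2a1, Tpi1, Pgam1, Pkm, Gbe1 and Ugp2 above WT, and these 2 comparisons share the WT libraries. The thalamic neuron markers differed in the same comparisons, their summed level being 252 to 677 CPM in APP/PS1/Sirt3-/- and 436 to 525 CPM in APP/PS1, against 207 to 209 CPM in WT. Of these 12 markers, 10 were higher at an unadjusted p under 0.05 in APP/PS1/Sirt3-/- and 9 in APP/PS1. Summed over 12 neuron markers, CPM was 6869 to 7353 in APP/PS1/Sirt3-/- and 7217 to 7364 in APP/PS1, against 7874 to 8129 in WT. The mean log2 CPM of the same 12 did not go that way. It was 8.81 to 8.87 in APP/PS1/Sirt3-/- and 8.81 to 8.85 in APP/PS1, against 8.73 to 8.81 in WT. At an unadjusted p under 0.05, 3 were higher and 3 lower than in WT in APP/PS1/Sirt3-/-, and 3 higher and 1 lower in APP/PS1. Summed over 10 microglia markers, CPM was 320 to 384 in APP/PS1/Sirt3-/- and 288 to 423 in APP/PS1, against 295 to 303 in WT. Of these 10 markers, 4 and 3 were higher than in WT at an unadjusted p under 0.05. The part of these tissues and cells in the members' values was not tested. Within APP/PS1 mice, Pfkp and Pfkfb3 lay above in all APP/PS1/Sirt3-/- libraries, or 6.45% against 5.7% of all genes, and 0 lay below, against 6.21%. With APP/PS1/Sirt3-/- 1 and 4 left out, 8 genes, or 25.8%, lay above, against 28.4% of all genes, and 3, or 9.68%, lay below, against 27.4%. Within mice labelled Sirt3-/-, Slc2a1, Hk2, Pfkfb3 and Pygb lay above in APP/PS1/Sirt3-/-, or 12.9% against 6.98% of all genes, and Ldhb and Pfkfb2 lay below, or 6.45% against 6.63%. With the same 2 libraries left out, 14 genes, or 45.2%, lay above, against 28.4% of all genes, and 4, or 12.9%, lay below, against 26.6%.

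Among the glucose transporters, Slc2a1, or GLUT1, carries glucose across the endothelium and into astrocytes. It stood at 94.4, 93.6 and 94.3 CPM in APP/PS1/Sirt3-/-, at 89.9, 98.0 and 90.3 CPM in APP/PS1, at 88.0, 73.9 and 75.9 CPM in Sirt3-/- and at 82.2, 80.4 and 83.0 CPM in WT. Both transgenic groups lay wholly above WT, and the Sirt3-/- group spread to both sides of WT. The log2 fold change was 0.20 (SE 0.07, edgeR adjusted p = 0.136) in APP/PS1/Sirt3-/- against WT and 0.25 (SE 0.07, edgeR adjusted p = 0.252) against Sirt3-/-. Without the libraries labelled APP/PS1/Sirt3-/- 1 and 4 these values were 0.19 and 0.24. Of 10 endothelial markers, 4 were higher in APP/PS1/Sirt3-/- than in Sirt3-/- at an unadjusted p under 0.05. In that contrast 11.4% of all genes had such a p. Against WT, 1 of the 10 was higher in APP/PS1/Sirt3-/- and 0 in APP/PS1. Their summed level was 306 to 319 CPM in APP/PS1/Sirt3-/-, 272 to 339 CPM in APP/PS1, 274 to 285 CPM in Sirt3-/- and 260 to 307 CPM in WT. The part of endothelial cells in the Slc2a1 values was not tested. Slc2a3, or GLUT3, is the neuronal transporter. It stood at 141, 161 and 170 CPM in APP/PS1/Sirt3-/- and at 152, 134 and 140 CPM in APP/PS1, so that the groups overlapped, with a log2 fold change of 0.15 (SE 0.08, edgeR adjusted p = 0.974).

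In upper glycolysis, from hexokinase to triosephosphate isomerase, no group stood apart throughout. Hk1 overlapped in all comparisons. Hk2, at only 74 to 153 reads per library, stood at 7.56, 7.12 and 7.29 CPM in APP/PS1/Sirt3-/-, at 6.15, 9.84 and 7.82 CPM in APP/PS1, at 4.59, 5.90 and 6.90 CPM in Sirt3-/- and at 6.17, 6.05 and 6.16 CPM in WT. Only the APP/PS1/Sirt3-/- libraries lay wholly above WT. Aldoc, the aldolase enriched in astrocytes, stood at 924, 870 and 850 CPM in Sirt3-/- and at 915, 1010 and 1055 CPM in WT. These overlapped by 1 library of each group, with a log2 fold change of -0.17 (SE 0.08, edgeR adjusted p = 0.399). Of 12 astrocyte markers, 4 were lower and 1 higher at an unadjusted p under 0.05 in the same comparison, where 13.5% of all genes had such a p. Their summed level was 3642 to 4535 CPM in Sirt3-/- and 4376 to 4609 CPM in WT, which overlapped. The mean log2 CPM of the same 12 did not overlap, at 7.07 to 7.22 in Sirt3-/- and 7.30 to 7.35 in WT. The part of astrocytes in the members' values was not tested. Pfkp, the platelet type phosphofructokinase, stood at 339, 329 and 329 CPM in APP/PS1 and at 374, 362 and 369 CPM in WT. It was the trunk enzyme with a group wholly below WT.

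In lower glycolysis all 6 genes had a log2 fold change above 0 in each of the 3 comparisons with WT, and none above 0.17. Pgam1, the phosphoglycerate mutase, stood at 167, 172 and 167 CPM in APP/PS1/Sirt3-/-, at 173, 170 and 168 CPM in APP/PS1, at 151, 157 and 171 CPM in Sirt3-/- and at 158, 151 and 143 CPM in WT. The transgenic groups lay above WT and the Sirt3-/- libraries reached into both ranges. Pkm stood at 1598, 1669 and 1595 CPM in APP/PS1/Sirt3-/- and at 1479, 1483 and 1448 CPM in WT. Eno2 was the 1 member wholly above WT in Sirt3-/-, with 865, 912 and 911 CPM in Sirt3-/- and 819, 861 and 835 CPM in WT, a gap of a few CPM between the nearest libraries.

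The lactate dehydrogenases showed no separation from WT. Ldha stood at 255, 263 and 304 CPM in APP/PS1/Sirt3-/-, at 272, 235 and 259 CPM in APP/PS1, at 297, 278 and 302 CPM in Sirt3-/- and at 312, 270 and 250 CPM in WT. Ldhb, the subunit that favours pyruvate formation, was lower in APP/PS1/Sirt3-/- than in Sirt3-/- in every library, with 449, 449 and 407 CPM against 456, 467 and 478 CPM. The nearest libraries of those groups differed by a few CPM only.

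Among the lactate transporters, Slc16a7, or MCT2, imports lactate into neurons. It stood at 7.74, 8.18 and 4.98 CPM in APP/PS1/Sirt3-/-, at 7.92, 5.92 and 5.65 CPM in APP/PS1, at 11.04, 8.06 and 8.61 CPM in Sirt3-/- and at 9.54, 10.6 and 8.89 CPM in WT. Both transgenic groups lay below WT, and Sirt3-/- overlapped WT. The log2 fold change was -0.57 in APP/PS1 against WT (SE 0.20, edgeR adjusted p = 0.188), which was the largest in size of any member in that comparison, and -0.47 in APP/PS1/Sirt3-/- against WT (SE 0.20, edgeR adjusted p = 0.205). Without the library labelled APP/PS1 4 the value for APP/PS1 was -0.48. Of the APP/PS1/Sirt3-/- libraries, number 2, whose Sirt3 level was that of Sirt3-/-, lay nearest to WT, at 8.18 CPM against 8.89 CPM in the lowest WT library. The gene rests on 86 to 178 reads per library. Slc16a1, or MCT1, at 30.2 to 41.2 CPM, and Slc16a3, at 3.35 to 6.83 CPM, overlapped between all groups.

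The bifunctional enzymes of the PFKFB family set the level of fructose 2,6-bisphosphate, which activates phosphofructokinase. Pfkfb4 stood at 21.3, 23.2 and 20.0 CPM in APP/PS1/Sirt3-/-, at 21.2, 24.6 and 20.3 CPM in APP/PS1, at 22.6, 20.3 and 20.9 CPM in Sirt3-/- and at 26.2, 29.1 and 24.3 CPM in WT. All other libraries except APP/PS1 2 lay below the lowest WT library. The log2 fold change against WT was -0.30 in APP/PS1/Sirt3-/- (SE 0.10, edgeR adjusted p = 0.115), -0.27 in APP/PS1 (SE 0.10, edgeR adjusted p = 0.201) and -0.32 in Sirt3-/- (SE 0.10, edgeR adjusted p = 0.188), all resting on the same WT libraries. The value for APP/PS1/Sirt3-/- was -0.20 without its libraries 1 and 4, and that for APP/PS1 was -0.21 without its library 4. The interaction was 0.29 (SE 0.14, edgeR adjusted p = 0.784).

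Pfkfb3, the form with the strongest kinase activity of the family, stood at 64.9, 62.1 and 72.4 CPM in APP/PS1/Sirt3-/-, at 61.5, 54.0 and 47.7 CPM in APP/PS1, at 60.4, 41.2 and 57.5 CPM in Sirt3-/- and at 50.02, 59.5 and 48.5 CPM in WT. The APP/PS1/Sirt3-/- libraries were the 3 highest of the 12. Against APP/PS1 the log2 fold change was 0.29 (SE 0.14, edgeR adjusted p = 0.974). It was 0.18 without the libraries labelled APP/PS1/Sirt3-/- 1 and 4, which leaves 1 library in that group, 0.20 without the library labelled APP/PS1 4, and 0.094 without all 3. Pfkfb2 stood at 25.8, 29.2 and 22.7 CPM in APP/PS1/Sirt3-/- and at 34.5, 31.6 and 29.3 CPM in Sirt3-/-, where the nearest libraries nearly touched, with a log2 fold change of -0.29 (SE 0.10, edgeR adjusted p = 0.319) and of -0.13 without APP/PS1/Sirt3-/- 1 and 4.

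Bpgm makes 2,3-bisphosphoglycerate, a side branch of lower glycolysis best known from red cells. It stood at 62.2, 58.8 and 52.8 CPM in APP/PS1/Sirt3-/-, at 66.5, 62.1 and 66.5 CPM in APP/PS1, at 60.9, 55.4 and 56.3 CPM in Sirt3-/- and at 52.1, 52.7 and 57.7 CPM in WT. APP/PS1 lay wholly above WT, and the other groups overlapped WT. The log2 fold change in APP/PS1 against WT was 0.26 (SE 0.08, edgeR adjusted p = 0.135). A fit of those 2 groups alone gave an adjusted p of 0.0433 by edgeR, and that fit called 6.81% of all genes. Without the library labelled APP/PS1 4 the value was 0.25. Against APP/PS1, APP/PS1/Sirt3-/- differed by -0.17 (SE 0.08, edgeR adjusted p = 0.974), and the interaction was -0.25 (SE 0.11, edgeR adjusted p = 0.745). Of 6 erythrocyte markers, 1 was higher in APP/PS1 than in WT at an unadjusted p under 0.05, and the median of the 6 was 0.75 on the log2 scale. Their summed level was 172, 163 and 428 CPM in APP/PS1 1, 2 and 4, against 142 to 171 CPM in WT. Their mean log2 CPM was 3.21, 3.30 and 4.39 in the same libraries, against 2.68 to 3.05 in WT.

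**Figure D5:**
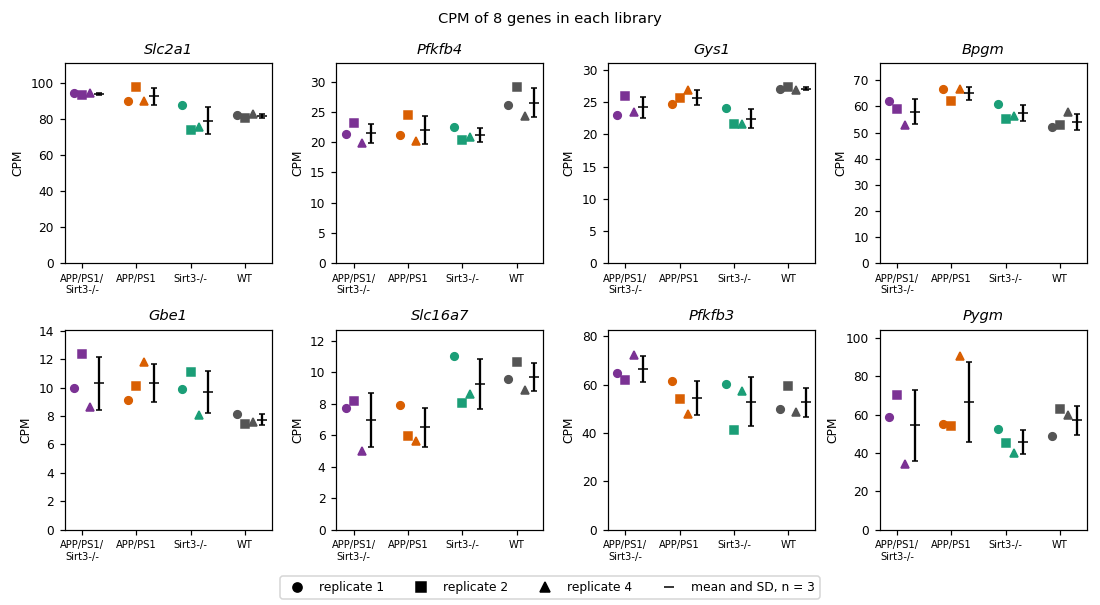
CPM of 8 genes in each library (points, colour for the group and shape for the replicate number), with the mean and SD of 3 libraries beside them and the y axis from 0. Slc2a1 is higher and Slc16a7 lower in both transgenic groups than in WT, Pfkfb4 is below the WT range in the other groups apart from 1 APP/PS1 library, and Pygm spreads from 34.1 to 90.5 CPM.

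In glycogen metabolism, Gys1, the glycogen synthase of brain, stood at 23.1, 26.0 and 23.5 CPM in APP/PS1/Sirt3-/-, at 24.7, 25.6 and 26.9 CPM in APP/PS1, at 24.1, 21.6 and 21.7 CPM in Sirt3-/- and at 27.1, 27.5 and 26.9 CPM in WT. Both groups labelled as lacking Sirt3 lay below WT, including the APP/PS1/Sirt3-/- libraries 1 and 4, which hold Sirt3 reads. The libraries labelled APP/PS1 1 and 2 lay below WT as well. APP/PS1 overlapped WT only through its library 4, whose App level was that of libraries without the transgenes. The log2 fold change in Sirt3-/- against WT was -0.27 (SE 0.08, edgeR adjusted p = 0.160), and the interaction was 0.18 (SE 0.11, edgeR adjusted p = 0.817). Gys1 overlaps Ruvbl2 on the other strand by 3253 bases. No source used here says whether the counting used strand, and reads of the overlap may belong to either gene.

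Gbe1, the glycogen branching enzyme, stood at 9.99, 12.4 and 8.62 CPM in APP/PS1/Sirt3-/-, at 9.15, 10.1 and 11.8 CPM in APP/PS1, at 9.92, 11.1 and 8.11 CPM in Sirt3-/- and at 8.16, 7.44 and 7.62 CPM in WT. Both transgenic groups lay above WT, and the Sirt3-/- group overlapped it by a narrow margin. The log2 fold change in APP/PS1/Sirt3-/- against WT was 0.41 (SE 0.16, edgeR adjusted p = 0.177), and over 22 alternatives it ran between 0.26 and 0.67, the highest being without APP/PS1/Sirt3-/- 1 and 4. Pygb, the brain type glycogen phosphorylase, stood at 270, 296 and 260 CPM in APP/PS1/Sirt3-/-, at 225, 247 and 223 CPM in Sirt3-/- and at 248.8, 264 and 252 CPM in WT. The Sirt3-/- libraries were below those of both other groups. APP/PS1/Sirt3-/- differed from Sirt3-/- by 0.25 on the log2 scale (SE 0.07, edgeR adjusted p = 0.268), and by 0.35 without its libraries 1 and 4. Pygm stood at 58.7, 70.5 and 34.1 CPM in APP/PS1/Sirt3-/- and at 55.2, 54.2 and 90.5 CPM in APP/PS1, so that its extremes were both in libraries numbered 4. Some other genes known from muscle were also highest in the library labelled APP/PS1 4. Eno3, the muscle enolase, stood at 41.7 CPM there, against 8.11 to 12.2 CPM in the other 11 libraries, Pgam2, the muscle phosphoglycerate mutase, at 15.2 CPM, against 2.39 to 6.94 CPM, and Slc2a4, or GLUT4, at 4.05 CPM, against 0.739 to 2.04 CPM. These 3 were singled out after their values were seen, and their link to the Pygm value was not tested. Hk2, also known from muscle, went otherwise and was highest in APP/PS1 2, at 9.84 CPM, against 7.82 CPM in APP/PS1 4. Ugp2, which makes the UDP-glucose that glycogen synthase uses, was 50.6 to 56.0 CPM in APP/PS1/Sirt3-/-, 49.6 to 56.7 CPM in APP/PS1, 48.2 to 59.6 CPM in Sirt3-/- and 46.0 to 49.5 CPM in WT. The highest of its 12 values was in a Sirt3-/- library.

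Other genes of the pathway were counted from lists that hold none of the 31. Among 20 further glycolysis genes, 11 glucose transporters, 12 monocarboxylate transporters and 9 genes of the pentose phosphate pathway, edgeR called none in any contrast. In APP/PS1/Sirt3-/- against WT, 4 of 16 tested glycolysis genes and 1 of 8 glucose transporters had an unadjusted p under 0.05. So did 0 of 10 monocarboxylate transporters and 2 of 9 pentose phosphate genes, beside 20.1% of all genes. DESeq2 called 1, 0, 0 and 2 genes of these lists, beside 6.25% of all genes. In Sirt3-/- against WT, DESeq2 called 2.48% of all genes and 1 monocarboxylate transporter, Slc16a11, whose edgeR log2 fold change was -0.39 (SE 0.10, edgeR adjusted p = 0.135). Among 22 further glycogen genes, 1 of the 21 tested was called by edgeR, in APP/PS1/Sirt3-/- against WT, where 1.13% of all genes were called. DESeq2 called 2 there, beside 6.25% of all genes, and 2 in APP/PS1 against WT, beside 3.07%. The gene called by edgeR is listed as Pgm2 and named Pgm1 in GENCODE, a phosphoglucomutase that links glucose 1-phosphate from glycogen to glycolysis.

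Pgm2 stood at 63.2, 62.1 and 54.4 CPM in APP/PS1/Sirt3-/-, at 62.6, 64.1 and 60.5 CPM in APP/PS1, at 50.1, 57.6 and 50.4 CPM in Sirt3-/- and at 44.4, 44.7 and 44.2 CPM in WT. All 3 other groups lay above WT, whose libraries were within 1 CPM of each other. It rose in APP/PS1/Sirt3-/- by 0.43 on the log2 scale (SE 0.08, edgeR adjusted p = 0.0317), and DESeq2 gave an adjusted p of 2.1e-04. In APP/PS1 against WT the difference was 0.49 (SE 0.08, edgeR adjusted p = 0.0545) and in Sirt3-/- against WT 0.25 (SE 0.08, edgeR adjusted p = 0.185). The interaction was -0.30 (SE 0.11, edgeR adjusted p = 0.745). The call was lost without 1 of several libraries, with an adjusted p of 0.0764, 0.116 and 0.127 without WT 1, 2 and 4, 0.0511 without APP/PS1 2, and 0.130 and 0.0798 without APP/PS1/Sirt3-/- 1 and 2. It held without the libraries labelled APP/PS1/Sirt3-/- 1 and 4 (adjusted p = 0.0423) and was lost without those and APP/PS1 4 (adjusted p = 0.0652).

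Hypoxia factors and their targets outside the 31 genes were also counted. Their link to the letters printed above was not tested. Of 21 hypoxia factors and their targets that were tested, edgeR and DESeq2 called 0 in any contrast. In Sirt3-/- against WT, 2 were higher and 2 lower at an unadjusted p under 0.05, or 19.05% against 13.5% of all genes. The count was 3 higher and 1 lower in APP/PS1/Sirt3-/- against WT, or 19.05% against 20.1% of all genes, and 2 higher and 2 lower in APP/PS1 against WT, or 19.05% against 17%. Hif1a itself, whose messenger RNA is not how oxygen controls the protein, stood at 41.7, 46.2 and 35.4 CPM in APP/PS1/Sirt3-/-, at 42.7, 44.2 and 38.5 CPM in APP/PS1, at 40.3, 37.1 and 33.3 CPM in Sirt3-/- and at 34.5, 33.3 and 30.7 CPM in WT. Both transgenic groups were above WT, and Sirt3-/- overlapped it, with a log2 fold change of 0.32 (SE 0.10, edgeR adjusted p = 0.111) in APP/PS1/Sirt3-/- against WT.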

How the data were processed

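Cortical RNA-seq libraries were grouped by their titles. Per the labels and the methods, the authors aligned reads to GRCm38 (mm10) with TopHat, allowing up to 2 mismatches, and deposited whole-number read counts per gene. The gene counter and its annotation: not given in the sources used here. FPKM values per library were deposited beside them. Their columns for 5 comparisons (log2 fold change, p, adjusted p and normalized means, from DESeq2) and 4 columns of group mean FPKM were not used.

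The main test was edgeR 4.0.16, run under R 4.3.3 (filterByExpr, TMM, robust quasi-likelihood fit of 4 group means over 12 libraries). From it, 6 contrasts were tested, with Benjamini-Hochberg adjustment over 16673 genes and a threshold of 0.05. CPM used TMM library sizes, log2 CPM a prior count of 2, and values are per library. P-values measure the spread between these samples, which may be technical in part, although by their reads each group held libraries of both sexes. In the shallowest library, 1 CPM is 15.0 reads. DESeq2 1.42.0 was an alternative. Figures used Python 3.11.15 and matplotlib 3.10.9. The scripts' tests were checked on simulated data.

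The members, gene lists and tests were chosen with earlier results of these data known. All 31 genes are named, and full statistics went to the 3 with the smallest p in each contrast. Of each other list, genes passing the threshold, or at most 2 by p, were named. Replicate numbers were checked for pairing: correlations of same-numbered deviations ran from -0.112 to 0.228, and in no contrast were all 3 above 0.1.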

Additional observations from a re-analysis of the deposited data

How the results depend on the processing

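Over 22 alternatives (20 for the interaction, for which fits of 2 groups alone were not made), the count of the 31 genes that passed was 0 in every contrast with 2 exceptions, both in APP/PS1 against WT. Bpgm alone passed when only those 2 groups were fitted, giving a count of 1 with edgeR (log2 fold change 0.27, adjusted p = 0.0433) and 1 with DESeq2 (adjusted p = 0.0496). These fits called 1089 genes (6.81% of all tested) with edgeR and 1264 (7.26%) with DESeq2, so 1 of 31 was not above the share of all genes. With all 12 libraries 0 and 499 genes were called, and the cause was not tested. Leaving out each library in turn gave a count of 0 in each contrast. With the replicate block the count was 0 in each contrast. The numbers do not pair the samples, but number 4 was the library with Y-linked reads in every group, so this block also takes in sex. No member given with full statistics changed the sign of its log2 fold change. Alternatives without the libraries that went against their Sirt3 or App labels, and with sex as a covariate, were chosen after seeing the data. They gave 0 as well, and the smallest adjusted p of a member in APP/PS1/Sirt3-/- against WT was 0.131, 0.141 and 0.0951 under them. With only 1 library left in APP/PS1/Sirt3-/-, that library is assumed to vary like the other groups. Hk2, Slc16a3, Slc16a7 and Gbe1, which have the fewest reads of the 31 genes, had SE of 0.16 to 0.23 in APP/PS1/Sirt3-/- against WT, and Pygm, with more reads, had 0.28.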
